A study of Mus musculus with 51 samples.

Results

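The regions described here are H3K4me1 peaks of early astrocytes (eA) that were marked at this stage alone and carried no H3K27ac peak at any of the 3 stages profiled. They were selected by overlap of peak lists: an eA H3K4me1 peak on chromosomes 1 to 19 was kept if it shared not 1 bp with an H3K4me1 peak of astroglial neural progenitor cells (aNPC) or late astrocytes (lA), nor with an H3K27ac peak of aNPC, eA or lA. This held for 16674 of 181227 eA H3K4me1 peaks, which is 9.20% (95% Wilson interval 9.07 to 9.33%), and they covered 4.54 Mb of the 109 Mb under eA H3K4me1. The 6 lists together hold 784577 peaks on these chromosomes. Because the members were chosen by these overlaps, their count describes the rule and is not a finding.

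The cells came from C57/BL-6 mouse embryonic stem cells. aNPC were kept in medium with EGF and FGF-2, eA were taken after day 1 and lA after day 5 in astrocyte medium with 1% FBS and LIF, and no knockdown or transgene is part of these groups. ChIP-seq of each mark at each stage was done in 2 biological replicates whose reads were merged before peaks were called, so there is 1 list per mark and stage and no error between cultures can be given. All intervals below cover counting error over peaks only. Neighbouring peaks share their library and are not replicates of a stage.

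H3K4me1 is placed by the Mll3 and Mll4 methyltransferases on enhancers and around promoters, often before a gene is used. H3K27ac, placed by p300 and CBP, marks the enhancers and promoters in use, and a distal region with the first mark and without the second is commonly called a primed or poised enhancer. In astrogliogenesis, the nuclear factor I proteins, Sox9, Stat3 and members of the AP-1 family (dimers of Fos, Jun and Atf proteins, among them Atf3) are known to act at such regions.

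The sequences around the strongest members are shown first, since a short stretch of sequence that the rule did not use was more frequent in the members than in other eA peaks. The 200 bases around the summit are printed 5′ to 3′ on the plus strand of mm9, with capitals marking matches to TGANTCA, the letters that AP-1 dimers recognise. Of the 10 members with the highest −log10 q, 4 held a match, and each is named by the coding start site nearest to it.
Sorcs3, chr19:48447172-48447371: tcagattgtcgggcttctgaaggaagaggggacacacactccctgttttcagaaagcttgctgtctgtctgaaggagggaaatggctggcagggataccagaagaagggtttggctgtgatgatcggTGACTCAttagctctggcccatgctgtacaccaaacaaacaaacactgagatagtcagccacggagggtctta
Dkk2, chr3:131874333-131874532: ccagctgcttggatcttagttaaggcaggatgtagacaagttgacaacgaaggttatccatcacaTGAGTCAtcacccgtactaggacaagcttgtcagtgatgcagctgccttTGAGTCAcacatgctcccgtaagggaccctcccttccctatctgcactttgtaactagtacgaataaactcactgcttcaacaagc
4930425F17Rik, chr2:131522154-131522353: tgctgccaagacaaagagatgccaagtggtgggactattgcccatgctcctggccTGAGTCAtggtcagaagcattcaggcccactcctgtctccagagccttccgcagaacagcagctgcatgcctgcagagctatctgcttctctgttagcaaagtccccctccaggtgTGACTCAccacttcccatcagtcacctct
Sh3glb1, chr3:144370417-144370616: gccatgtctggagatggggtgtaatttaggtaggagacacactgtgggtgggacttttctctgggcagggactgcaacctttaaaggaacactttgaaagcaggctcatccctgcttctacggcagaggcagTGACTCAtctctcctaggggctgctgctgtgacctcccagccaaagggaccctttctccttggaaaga

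The rest of the same 10 held no match, and 2 of them are shown here. The first lies in an intron of Sema3a, which codes for a secreted axon guidance cue, and the second in an intron of Etv1, which codes for an ETS transcription factor.
Sema3a, chr5:13557363-13557562: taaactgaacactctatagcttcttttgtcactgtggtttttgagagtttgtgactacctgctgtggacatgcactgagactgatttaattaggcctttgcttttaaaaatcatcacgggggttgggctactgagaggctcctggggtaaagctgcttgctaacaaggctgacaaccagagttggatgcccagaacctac
Etv1, chr12:39580837-39581036: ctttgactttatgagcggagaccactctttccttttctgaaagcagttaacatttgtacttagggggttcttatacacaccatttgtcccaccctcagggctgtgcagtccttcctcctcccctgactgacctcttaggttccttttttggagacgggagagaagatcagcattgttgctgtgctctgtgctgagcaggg

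The AP-1 letters TGANTCA lay within 100 bp of the summit in 2096 of 16674 members, or 12.6% (12.1 to 13.1%). Among the other 164553 eA H3K4me1 peaks the share was 7.18% (7.06 to 7.31%), so the members were 5.39 points higher (95% Newcombe interval 4.88 to 5.91), or 1.75 times. When the rule was applied to the other stages, AP-1 letters were found in 5.51% of 14754 aNPC-only peaks and in 7.98% of 50637 lA-only peaks, which is lower than in the members by 7.06 points (6.44 to 7.68) and 4.59 points (4.04 to 5.15). In windows of the same length placed every 10 kb along these chromosomes the share was 5.89%. The letters read the same on both strands, and matches of different factors may overlap and are each counted.

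With C or G at the centre (TGACTCA on 1 strand and TGAGTCA on the other), the consensus AP-1 site, the members stayed above the other eA peaks, by 4.54 points (4.10 to 5.00). Such a match was present in 9.28% of members, 4.74% of the other eA peaks, 3.03% of the aNPC-only and 4.98% of the lA-only peaks. With A or T at the centre the shares were 3.70% and 2.60% for the members and the other eA peaks. These centres were separated after the data had been seen. In 1933 members there was 1 match, in 155 there were 2 and in 8 at least 3.

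The higher AP-1 share was present on each of the 19 chromosomes. It ran from 10.2 to 14.4% in the members and was at most 8.04% in the other eA peaks, with intervals that did not overlap on any of the 19. Base composition differed little between the sets (median GC 48.0% in the members and 48.5% in the other eA peaks), and with the other eA peaks weighted to the GC content of the members their AP-1 share was 7.30%. In the step of 45 to 50% GC, 13.5% of 4973 members and 7.70% of 49531 other eA peaks held the letters.

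**Figure D1:**
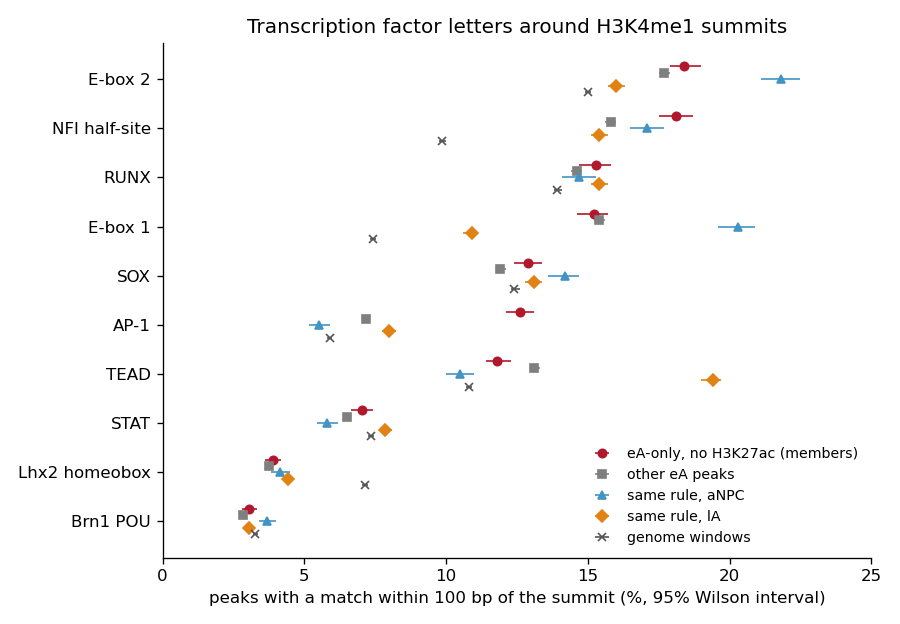
Share of peaks (%) with a match to the letters of each factor in the 200 bp around the summit, for the members, the other eA H3K4me1 peaks, the same rule applied to aNPC and lA, and genome windows, with 95% Wilson intervals; E-box 1 is CAGCTG and E-box 2 is CAGATG. The AP-1 share of the members, 12.6%, lies above the 4 other sets, and their TEAD share, 11.8%, lies below that of the lA-only peaks, 19.4%.

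The AP-1 share varied among eA peaks with the stages at which H3K4me1 was called, and with H3K27ac. Peaks of eA and lA without H3K27ac held the letters in 10.5% of 22252 cases, 2.04 points below the members (1.39 to 2.68), whereas peaks shared by aNPC and eA without H3K27ac held them in 6.82% of 14640. In regions marked by H3K4me1 at all stages the share was 6.65% without and 6.10% with H3K27ac. The 3154 eA-only H3K4me1 peaks with H3K27ac at 1 or more stages held them in 9.45%, 3.12 points below the members (1.94 to 4.22).

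Within the members, AP-1 letters were more frequent in peaks of high −log10 q and in those far from other marked regions, but not in those with the most fragments. The share was 11.2% of 1954 members with a −log10 q under 3, and 16.8% (14.2 to 19.8%) of the 677 members with a −log10 q of 10 or more. Among the other eA peaks it was 8.70, 7.56, 7.81, 7.98 and 6.56% from the lowest to the highest class of −log10 q. By fragments at the summit, the letters were found in 12.5% of members with under 17, in 13.3% and 13.7% of the classes starting at 17 and 21, and in 10.6% (9.75 to 11.6%) of the 4318 members with 27 or more. Members with the nearest peak of the 5 other lists under 1 kb away held the letters in 10.1%, those at 1 to 5 kb in 14.5% and those at 5 kb or more in 15.7%. By place, the letters were found in 14.1% of intergenic, 11.6% of intronic, 9.42% of exonic and 8.91% of promoter members, and in the other eA peaks in 8.10, 6.98, 4.57 and 4.28% of these. At summit pileups of 17 to 27 fragments, the middle range of the members, 13.4% of members and 8.45% of the other eA peaks held them.

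**Figure D2:**
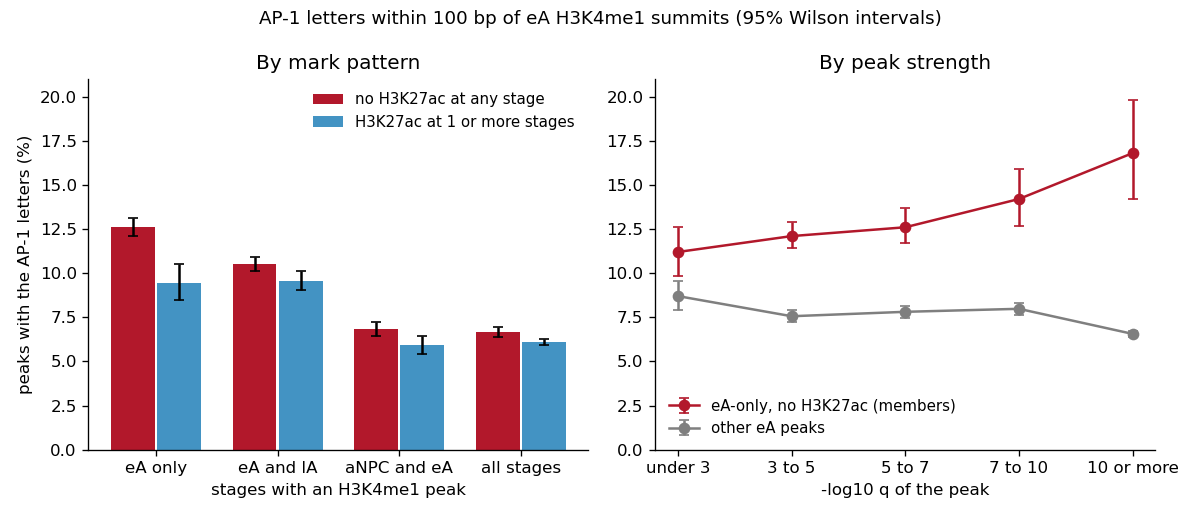
Left, share (%) of eA H3K4me1 peaks with AP-1 letters within 100 bp of the summit by the stages with H3K4me1 and by H3K27ac; right, the same share by the −log10 q of the peak; bars and points carry 95% Wilson intervals. The members are the first red bar (12.6%) and the red line, which runs from 11.2 to 16.8%.

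AP-1 matches of the members were densest near the summit. In steps of 50 bp there were 36.6 matches per 1000 members just downstream of the summit and 35.7 in the step from -100 to -50 bp, against 23.7 at the outer edge of the 500 bp window. In the other eA peaks the matches dipped at the summit, with 18.8 and 18.9 per 1000 peaks in both inner steps and up to 21.6 beyond.

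**Figure D3:**
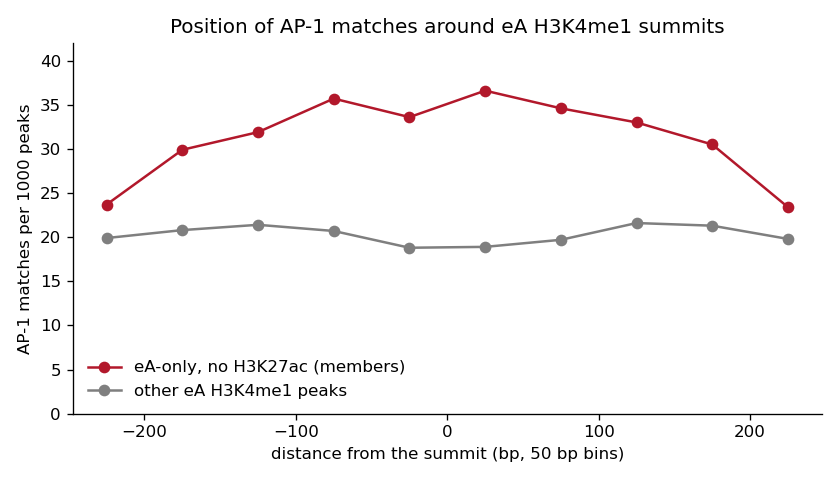
AP-1 matches per 1000 peaks by distance from the H3K4me1 summit (bp, in bins of 50 bp) for the members and the other eA peaks. The members' line is above the other at each bin and falls to 23.4 and 23.7 at the edges, while the other line is lowest, at 18.8, beside the summit.

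Of the 29 members given to the astrocyte markers listed below, 3 held these letters (10.3%, 3.58 to 26.4%), and of the 57 given to transcription factors of astrogliogenesis 13 did (22.8%, 13.8 to 35.2%), against 12.6% of all members. Of these 13, 5 belonged to Zbtb20, and without this gene, left out after its count had been seen, it was 8 of 47 (17.0%, 8.89 to 30.1%). In the other lists it was 2 of 12 for progenitor genes, 1 of 25 for proneural and neuronal transcription factors, 4 of 40 for synapse and structure genes, 3 of 22 for adhesion, matrix and cytoskeleton genes, and 0 of 11, 0 of 8 and 0 of 5 for oligodendrocyte, endothelial and microglial, and pluripotency genes. Named were 4 genes of each list. Of the 8 named astrocyte marker and astrogliogenesis factor genes, the member of highest −log10 q held the letters at 2. These 2 are shown for that reason. At the 4 genes named in each of the other lists, the member of highest −log10 q held no match. The only member given to Slc4a4, which codes for a sodium bicarbonate cotransporter, lay in its intron and held 2 matches, and the strongest one given to Runx1, a Runt family transcription factor, held 1. Those of Slc1a2, Mlc1, Ntsr2, Atf3, Zbtb20 and Tead1 held none.
Slc4a4, chr5:89569181-89569380: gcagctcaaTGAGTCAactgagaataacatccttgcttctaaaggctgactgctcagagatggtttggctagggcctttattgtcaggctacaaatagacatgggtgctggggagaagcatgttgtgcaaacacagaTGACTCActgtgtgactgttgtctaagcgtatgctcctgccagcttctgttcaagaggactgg
Runx1, chr16:92862089-92862288: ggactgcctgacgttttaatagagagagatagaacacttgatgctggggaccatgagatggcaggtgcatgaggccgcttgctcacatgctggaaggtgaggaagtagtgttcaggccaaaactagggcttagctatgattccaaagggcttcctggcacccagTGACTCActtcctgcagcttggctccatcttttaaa

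Of the letters searched, the others differed less than AP-1 between the members and the other eA peaks. The NFI half-site TTGGCA, bound by the nuclear factor I proteins, was found in 18.1% of members (17.5 to 18.7%) and 15.8% of the other eA peaks, a difference of 2.25 points (1.65 to 2.87), and in 17.1% of the aNPC-only and 15.4% of the lA-only peaks. A full NFI site, TTGGC and GCCAA 5 bases apart, was present in 12 members (0.0720%) and in 0.0662% of the other eA peaks. This is a difference of 0.00573 points, with an interval that reaches both signs (-0.0280 to 0.0607). The TEAD letters GGAATG were found in 11.8% of members and 13.1% of the other eA peaks, a difference of -1.28 points (-1.79 to -0.755), while lA-only peaks held them in 19.4% and genome windows in 10.8%. For the E-box CAGCTG, recognised by basic helix-loop-helix factors, the members (15.2%) and the other eA peaks (15.4%) lay between the aNPC-only peaks (20.3%) and the lA-only peaks (10.9%). For CAGATG, the E-box of Neurog and Neurod factors, the members again lay between the aNPC-only and lA-only peaks, with 18.4% of members, 17.7% of the other eA peaks, 21.8% of aNPC-only and 16.0% of lA-only peaks. STAT letters TTCNNNGAA were found in 7.03% of members and 6.50% of the other eA peaks, SOX letters CATTGT in 12.9 and 11.9%, and RUNX letters TGTGGT in 15.3 and 14.6%, differences of under 1 point each. The homeobox letters TAATTA (3.89 and 3.76%) differed by 0.123 points (-0.174 to 0.441). The POU letters ATGCNAAT (3.06 and 2.84%) differed by 0.225 points (-0.0390 to 0.509), so that both intervals reach both signs.

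The members were weak and narrow peaks. The rule itself favours narrow ones, since a wide peak is more likely to meet another list. It may favour weak ones too, but strength at equal width was not tested. Their median width was 235 bp (quartiles 194 and 310) against 517 bp for the other eA peaks, and the median −log10 q was 4.57 against 10.3. The fold enrichment and p-value of each peak fix the whole number of fragments stacked on its summit, its pileup. This was 21 in the median member (quartiles 17 and 27) and 36 in the other eA peaks, over a genome background of 4.84 fragments per base.

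**Figure D4:**
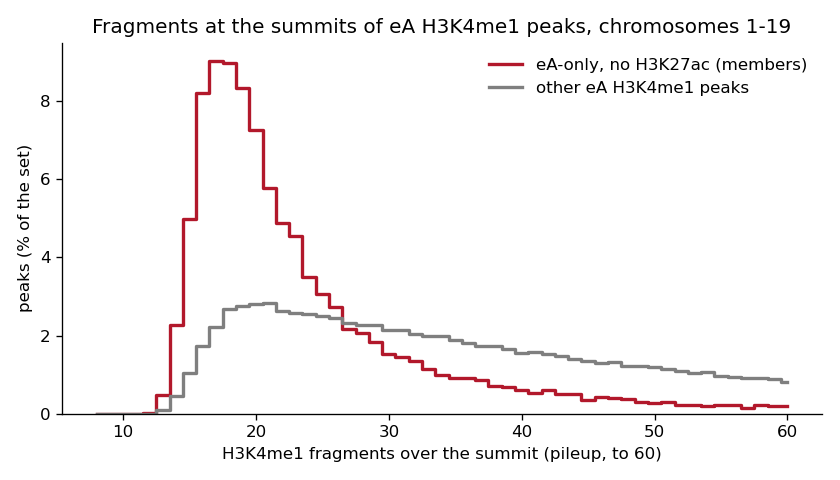
Distribution of the number of H3K4me1 fragments over the summit (to 60) in the members and the other eA peaks, as a share (%) of each set. The median is 21 fragments in the members and 36 in the other peaks.

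These depths bear on what an absent peak means. The background was 4.02 fragments per base in aNPC and 4.66 in lA, and among the peaks called at that background the 1st percentile of the pileup was 13 and 14 fragments, with a lowest value of 11 and 12. Scaled to the depth of eA, these percentiles are 15.7 and 14.6 fragments, and more would be needed where the local background was higher. The lower 95% Poisson bound of the pileup exceeded the first value in 5285 members (31.7%) and the second in 6629 (39.8%). For the members not above the value of a stage, a region of the same height at that stage could have gone uncalled at this depth. The AP-1 letters were found in 11.1% (10.3 to 11.9%) of the 5285 members above both values. No such limit was worked out for the H3K27ac lists, whose backgrounds were 4.35, 3.74 and 4.09 fragments per base in aNPC, eA and lA.

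At the limit of the rule, the 194 members less than 10 bp from a peak of another list had a median width of 230 bp and 21 fragments, and the 225 eA peaks left out for an overlap of 1 to 10 bp had 219 bp and 21 fragments. The median member lay 1.08 kb from the nearest peak of the other lists, and 8137 members (48.8%) lay within 1 kb of one. The median distance to the nearest H3K27ac peak of aNPC, eA and lA was 10.2, 8.89 and 8.28 kb, and that to the nearest H3K4me1 peak of aNPC and lA was 2.74 and 2.01 kb. The next eA H3K4me1 peak was within 1 kb for 43.1% of members and 54.6% of the other eA peaks.

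The strongest member spanned chr19:48446489-48447723 in an intron of Sorcs3, a receptor of the Vps10p family, with a −log10 q of 25.2 and 49 fragments (95% Poisson interval 36.3 to 64.8) at its summit. The nearest H3K4me1 peaks of aNPC and lA were 3.73 and 3.79 kb away. The member at chr3:131874266-131874692 was intergenic, 126 kb from the start site of Dkk2, which codes for a secreted Wnt antagonist, and had 43 fragments (31.1 to 57.9). The Sema3a member, chr5:13557295-13557667, had 42 fragments and lay 7.08 kb from the nearest lA H3K4me1 peak. That of 1700112E06Rik, with 50 fragments, lay 0.041 kb from an aNPC H3K4me1 peak, so that a strong member need not be far from a marked region. A group of 4 isolated ones, nearest to Fbxo38, Ankra2, Sh3glb1 and Pygo1, had 39 or 40 fragments. The member nearest to the start site of Pygo1 lay in an exon of its neighbour Prtg, 10.5 kb or more from the peaks of the other lists.

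Most members were distal. Their centres were intronic in 49.2%, intergenic in 44.8%, exonic in 4.14% and at a promoter (at most 1 kb before or 100 bp past a start site) in 1.82% (1.63 to 2.03%), or 303 members. Promoters were less frequent than among the other eA peaks (6.39%), with a difference of -4.57 points (-4.80 to -4.33), and than among the aNPC-only peaks (2.91%), but slightly more frequent than among the lA-only peaks (1.39%). Since the rule removed peaks with H3K27ac, which marks active promoters, a lower share than in the other eA peaks is in part built in and is given as a description. Among peaks with 17 to 27 fragments, where the members still had fewer fragments than the others, the promoter share was 1.61% against 3.35% in the other eA peaks. For intergenic peaks the order turned there, with 47.4% of members and 49.9% of the others. The promoter member of highest −log10 q belonged to Acr, which codes for the sperm protease acrosin, with a −log10 q of 14.9. The promoter of Col7a1, which codes for a collagen, held a member with an AP-1 match, 15.1 kb from the nearest H3K4me1 peak of aNPC and lA.

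**Figure D5:**
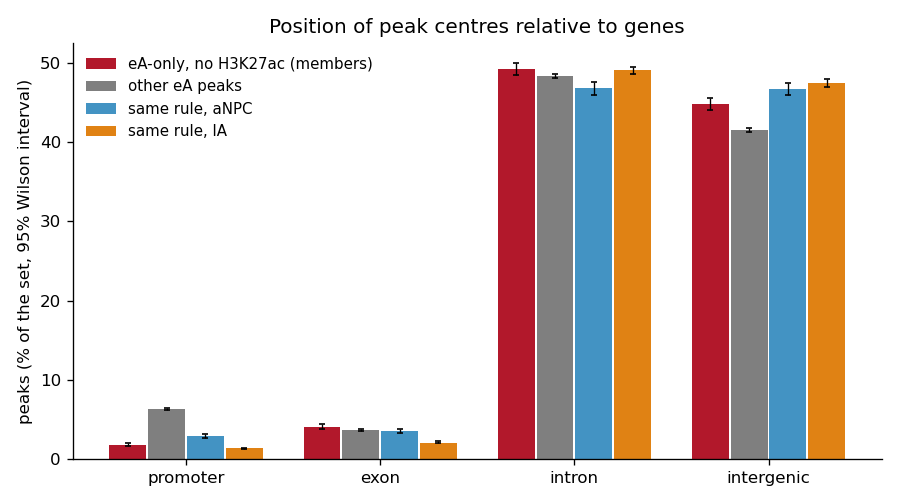
Share (%) of peak centres at promoters, in exons, in introns and between genes for the members, the other eA peaks and the same rule in aNPC and lA, with 95% Wilson intervals. Promoters hold 1.82% of the members and 6.39% of the other eA peaks.

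A gene could be given to 12623 members (75.7%), by the nearest coding start site if the member lay in a gene or within 50 kb. They fell on 6785 of 21281 coding genes, 1.86 per gene, and long genes received more. The median length was 34.4 kb for genes with a member, 236 kb for the 373 genes with at least 5, 20.4 kb for genes given any eA H3K4me1 peak and 15.6 kb for all coding genes. Camta1, a calmodulin-binding transcription activator, had 28 members among its 118 eA H3K4me1 peaks, the most of any gene. Nrp2, a receptor for semaphorins, had 18 of 99, but only 7 members overlapped its gene body with 5 kb on each side, against 28 at Camta1 and 18 at Npas3. Glis3, a zinc finger transcription factor, had 17 of 96. Anks1b had 16 of 95 and Arid1b, a subunit of the BAF chromatin remodelling complex, 16 of 85. Npas3, a neural transcription factor, had 14 of 130, Ntm, a cell adhesion molecule, 14 of 118, Nckap5 13 of 149, Sema6d 13 of 108 and Zfp385b 13 of 46. As a share of a gene's eA peaks this ran from 8.72% at Nckap5 to 28.3% at Zfp385b, beside 9.20% over all eA peaks.

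Gene lists of the cell types did not stand apart in the share of their eA H3K4me1 peaks that were members. The share over all eA H3K4me1 peaks was 9.20%, and the interval of each list held that value, which does not show that the lists are alike. For the astrocyte markers 29 of 300 peaks were members (9.67%, 6.82 to 13.5%), with a member at 12 of 20 genes. Slc1a2, the glutamate transporter of astrocytes, had 6, the neurotensin receptor gene Ntsr2 5 and Cd44 4, while Gfap, Aldh1l1, Aldoc and Glul had 0. By overlap with the gene body and 5 kb on each side, Slc1a2 and Ntsr2 had 3 each, Gfap and Aldh1l1 1 each, and Aldoc and Glul 0. For the transcription factors of astrogliogenesis it was 57 of 708 (8.05%), with 10 at Zbtb20, 7 each at Runx1 and Runx2, 6 each at Nfia and Nfib, and 0 at Stat3. Of the 67 eA peaks given to 8 AP-1 genes, 6 were members (8.96%, 4.17 to 18.2%), with 2 at Atf3, 1 each at Fos, Fosl1, Jun and Junb, and 0 at Fosb, Fosl2 and Jund. By overlap with the gene bodies and 5 kb on each side the counts differed, with 1 each at Junb and Jund and 0 at the others. The Atf3 member of highest −log10 q lay 38.9 kb from the start site with 55 fragments and held no AP-1 letters.

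Proneural and neuronal transcription factors had 25 of 239 peaks (10.5%), and synapse and structure genes 40 of 422 (9.48%), with 11 at Nlgn1, 6 at Rbfox3 and 4 at Mtap2. The strongest member at Rbfox3, the gene of the neuronal antigen NeuN, lay in an intron with a −log10 q of 10.1. Of 2 members at Cntnap2, the one of higher −log10 q was 292 kb from the nearest lA H3K4me1 peak and 1268 kb from eA H3K27ac. Progenitor genes had 12 of 163 (7.36%), with 2 each at Pax6, Msi1 and Prom1, and adhesion, matrix and cytoskeleton genes 22 of 292 (7.53%), with 4 at Tnc and 3 each at Col4a1 and Vcl. Oligodendrocyte genes had 11 of 97 (11.3%), endothelial and microglial genes 8 of 76 (10.5%) and pluripotency genes 5 of 56 (8.93%). The nearest start site can name a gene other than the host, as for the strongest member given to Slc1a2, which lay in an exon of Pamr1.

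The labelled cell type was checked by H3K27ac at promoters of the same lists. In eA, 14 of 20 astrocyte marker promoters overlapped an H3K27ac peak, against 13 in aNPC and 13 in lA. For proneural and neuronal transcription factors it was 9, 6 and 3 of 18 in aNPC, eA and lA, and for endothelial and microglial genes 0, 2 and 1 of 12. Neural progenitor genes had 12, 14 and 11 of 15, and synapse and structure genes 8, 9 and 6 of 20. Oligodendrocyte genes had 3, 3 and 1 of 12, and pluripotency genes 2, 2 and 1 of 8. For the transcription factors of astrogliogenesis it was 21, 21 and 17 of 24, and for adhesion, matrix and cytoskeleton genes 13, 14 and 14 of 19. Astrocyte promoters were acetylated in aNPC as often as in lA, so this list does not separate the stages.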

How the data were processed

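H3K4me1 and H3K27ac ChIP-seq of aNPC, eA and lA was used from 6 peak lists. The authors aligned unique reads to mm9 with Bowtie, merged the 2 replicates with SAMtools 0.1.19 and called peaks with MACS2 at default settings without input, on chromatin sonicated before precipitation. In the deposited lists the score is a whole number derived from the q-value and was not used. The deposited fold is the enrichment at the summit over the local background. The authors' −log10 values are those of p and q at the summit.

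From fold and −log10 p the whole summit pileup and local background were solved under the Poisson model of MACS2, with a tolerance of 0.01 in −log10 p, and this step was chosen after the data had been seen. It gave a solution for 100% of the members. Overlap meant 1 bp or more, and each list of regions was restricted to chromosomes 1 to 19. Genes and start sites came from GENCODE M1 on mm9, of the same build as the lists. Exact letters were matched on both strands in 200 bp around summits, with 500 bp as an alternative. Shares carry 95% Wilson and differences Newcombe intervals, and no p-value was computed. The pileup and background solution, the overlap rule, the matching of the AP-1 letters and the coverage of the intervals were tested on simulated data.

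Members, gene lists and letters were chosen with earlier results of these data known. The genes named were those of the 10 members with the highest −log10 q, the 10 genes with the most members and up to 4 genes per list by −log10 q, and other genes were named after their values were seen. Listed genes spelled otherwise in the annotation (Mtap2, Gm98, Sfpi1 and Tcfcp2l1) were matched by RefSeq synonyms of GRCm38, used for names alone. Sox1 and Flna were not analysed here. Alternatives for thresholds, overlap, list length, window and gene assignment were run. RNA-seq, knockdown samples and 8 libraries with conflicting labels, of 51 samples, were not analysed here. Python 3.11.15, NumPy 2.4.6, SciPy 1.17.1, pandas 2.3.3, pysam 0.24.0, samtools 1.23.1 and matplotlib 3.10.9 were used.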

Additional observations from a re-analysis of the deposited data

How the results depend on the processing

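The number of members depended on how an absent peak was defined. It was 6614 for eA peaks with a −log10 q of at least 5, 8537 without any peak of another list within 1 kb, and 5285 where the lower pileup bound exceeded both other H3K4me1 lists' scaled 1st percentiles, an alternative chosen after seeing the data. Requiring a −log10 q of 5 or more in each list, summit overlap, equal list lengths or X and Y added it was 12040, 24777, 12326 and 17132. At a −log10 q of at least 5, the intron share was 50.1%, the intergenic share 43.2%, the share given a gene 76.9%, the median distance to a start site 29.7 kb, the width 278 bp, the GC content 49.0% and the AP-1 share 13.5%. Without a peak of another list within 1 kb, these were 46.4%, 48.0%, 73.5%, 35.2 kb and 243 bp, with a promoter share of 1.49% and, chosen after seeing the data, an AP-1 share of 14.9%. The promoter share was 5.28% within 1 kb of any start site, the share given a gene 66.2% with a 20 kb limit, the GC content 46.2% in 500 bp. The AP-1 share was 26.5% in 500 bp, and, with both choices made after seeing the data, 9.28% for a C or G centre and 11.1% of the 5285 members above. The AP-1 difference from the other eA peaks stayed above 0 at 8.47 points in 500 bp, 6.46 at a −log10 q of at least 5, 4.54 for a C or G centre and 5.27 at equal GC. The homeobox difference turned to -0.105 points at a −log10 q of at least 5 and to -0.126 at equal GC, and to 0.665 (0.149 to 1.20) in 500 bp, where the STAT and SOX differences no longer excluded 0 (0.464 and 0.331). That of CAGCTG turned to 0.259 at equal GC. By gene body with 5 kb on each side, 72 of 148 listed genes had a member in place of 88. No paired analysis was possible because the replicates were merged into 1 list per stage before deposit, and for the same reason no replicate could be left out. Depth limits the call of absence in weak regions, as the pileups show.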
